A study of Mus musculus with 96 samples.

Results

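Ifit1, Ifit2, Ifit3, Rsad2 and Cmpk2 are 5 antiviral genes that macrophages switch on after contact with bacterial lipopolysaccharide (LPS). They were taken by name from a table of 23481 gene symbols. All 5 passed the filter on low counts, as did 4963 genes in all. The genes were chosen to set members that LPS signalling can switch on directly beside members that need a secreted signal. Mouse bone marrow-derived macrophages were given a small molecule for 30 min and then LPS, and were lysed 4 h after LPS. Transcript 3′ ends were counted in 96 libraries. Each of 12 groups held 8 wells, 4 on each of 2 plates. Cells of every group came from wild-type male C57BL/6 mice aged 8 weeks and were grown in conditioned medium with MCSF, a macrophage growth factor. NoStim wells received no LPS, and no vehicle or pretreatment is stated for them. DMSO wells received the vehicle and LPS, so vehicle and LPS cannot be told apart in DMSO against NoStim wells. Wells of the other 10 groups received LPS with BrefA, tBHQ, Halofuginone, Torin, pGE2, Dexa, Tunicamycin, Caspase-1, Baflo or ZVAD, named here as in the labels. No dose is stated for any of them, and no compound was given without LPS.

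LPS binds the receptor TLR4, and the adaptor TRIF then activates the transcription factor IRF3, which switches on interferon beta and some antiviral genes directly. Interferon beta is secreted, binds its receptor on the same or neighbouring cells, and activates ISGF3, a transcription factor complex that switches on a wider set of interferon-stimulated genes. Ifit1, Ifit2 and Ifit3 encode interferon-induced proteins with tetratricopeptide repeats, of which IFIT1 binds the 5′ ends of foreign RNA and IFIT2 and IFIT3 are its partners. Rsad2 encodes viperin, a radical SAM enzyme that makes a chain-terminating nucleotide. Cmpk2 encodes a nucleotide kinase that supplies the precursor of that nucleotide. The label BrefA was taken as brefeldin A, which blocks transport from the endoplasmic reticulum to the Golgi and so blocks secretion.

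The members lie in 2 gene clusters (GENCODE M21 annotation, mm10 build). Rsad2 (ENSMUSG00000020641.16) lies on chromosome 12 from 26442746 to 26456452 on the minus strand, and Cmpk2 (ENSMUSG00000020638.8) from 26469204 to 26479837 on the plus strand. Their annotated starts are 12752 bases apart and point away from each other. Ifit2 (ENSMUSG00000045932.12; 34550694 to 34576419), Ifit3 (ENSMUSG00000074896.3; 34583531 to 34588731) and Ifit1 (ENSMUSG00000034459.8; 34640871 to 34650009) lie on the plus strand of chromosome 19. ISGF3 and IRF3 both read DNA with repeated GAAA letters. The 250 bases before each start (RefSeq, GRCm38.p6) were searched on both strands for 2 GAAA copies with 2 bases between them, and every match is shown in capitals because it is the stretch an interferon-activated factor could read. Overlapping matches were counted separately.

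Ifit1 (chr19:34640775-34640804): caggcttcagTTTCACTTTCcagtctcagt
Ifit1 (chr19:34640794-34640823): ccagtctcagTTTCAGTTTCtcactgctga
Ifit3 (chr19:34583363-34583392): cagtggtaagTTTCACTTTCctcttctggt
Ifit3 (chr19:34583397-34583426): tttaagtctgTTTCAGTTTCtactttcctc
Rsad2 (chr12:26456553-26456582): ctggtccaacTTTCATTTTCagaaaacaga

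Each sequence reads 5′ to 3′ on the strand of its gene, where the motif stands as its reverse complement. Ifit1 and Ifit3 held 2 matches each and Rsad2 held 1. The Cmpk2 window and both Ifit2 windows held no match. Only this exact motif was searched, so variants of it and sites outside these windows would be missed. Over all promoter windows, 978 of 32851 (2.98%) held a match, as did 153 of 3778 tested genes with a window (4.05%). The 2 Ifit1 stretches also lie in the window of Ifit1bl2, a relative on the opposite strand (34617049 to 34640743). Ifit3b, a close relative of Ifit3 listed as I830012O16Rik, held the same 30 letters at both of its matches. Of the last 500 bases of the Ifit3 transcript, 14.9% of 50-base stretches also occur in Ifit3b. Reads from there cannot be assigned to 1 of the 2 genes, so Ifit3 counts are less certain than those of the other members, which shared none.

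Total counts per library ran from 80196 to 379198, with a median of 257984.5. Levels are given as CPM, the share of a library's counts rescaled to a common library size, after scaling for library composition. Halofuginone libraries were shallow, at 80196 to 136526 counts, and the ribosomal RNA precursor Rn45s took 44.7% ± 3.20 of their counts (SD, n = 8), against 19.4% ± 4.64 in DMSO wells. The well Tunicamycin plate 2 F stood apart from its group, and the Tunicamycin results are given with and without it. Marker sums are in CPM without scaling for library composition, so the Halofuginone sums also carry the high Rn45s share. Summed macrophage markers ran from 1142 to 4766 CPM over all libraries, with the highest sum in a pGE2 well. Mean Cd14, 1 of these markers, was 2286 CPM with pGE2 and 495 CPM in DMSO wells after composition scaling. Of 7 tested macrophage markers, 1 was called higher with pGE2 than in DMSO wells and 0 lower. B cell markers stayed at or below 6.90 CPM, T or NK cell markers at or below 18.4 CPM neutrophil markers at or below 24.0 CPM, erythroid markers at or below 7.03 CPM and fibroblast markers at or below 65.5 CPM. The 8 dendritic cell markers summed to 117 to 868 CPM. Of these, 2 passed the filter, Bst2, which is also an interferon-stimulated gene, and Tcf4. The sum of the 8 had a median of 630.4 CPM in DMSO, 436 CPM in BrefA and 225 CPM in Halofuginone wells. Tcf4 and Bst2 made up most of it, with means of 439 and 171 CPM in DMSO wells after composition scaling. None of the markers below the filter had a lower mean with BrefA than in DMSO wells. Means were 31.2 against 24.3 CPM for Xcr1, 2.48 against 1.37 for Siglech, 3.86 against 1.87 for Itgax and 0.857 against 0 for Zbtb46. Flt3 and Cd209a had no counts in either group. With Halofuginone Xcr1 was at 11.6 CPM, Siglech at 0 and Itgax at 2.03. With BrefA, Bst2 was at -0.90 ± 0.19 and Tcf4 at -0.60 ± 0.12 on the log2 scale, and with Halofuginone at -1.70 ± 0.28 and -0.90 ± 0.15, all called lower, and their part in the members' results was not tested. Whether each well was its own culture is not stated, so p-values measure only the spread between wells, which may be technical. In bulk libraries, fewer responding cells and less RNA per cell cannot be told apart.

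All 5 members were higher after LPS, with 12.7-fold more Cmpk2, 8.15-fold more Ifit1, 3.06-fold more Ifit2, 4.32-fold more Ifit3 and 18.0-fold more Rsad2 in DMSO than in NoStim wells. Rsad2 ran from 485 to 1976 CPM in NoStim wells (median 919) and from 16743 to 21034 CPM in DMSO wells (median 19392). Cmpk2 ran from 86.7 to 240.0 CPM without LPS (median 112) and from 1315 to 2018 CPM with it (median 1807). For both genes of the chromosome 12 pair, every DMSO well lay far above every NoStim well. Ifit1 ran from 207.5 to 491 CPM without LPS (median 260.3) and from 2135 to 2751 CPM with it (median 2365). Ifit2 ran from 173 to 879 CPM without LPS (median 366) and from 993 to 1449 CPM with it (median 1249.7). Ifit3 ran from 38.1 to 193 CPM without LPS (median 67.6) and from 278 to 570.1 CPM with it (median 387). The groups did not overlap for any member, and 8.62% of all tested genes lay wholly above NoStim in this way. The gap was narrowest in CPM for Ifit3, and the highest NoStim well for Ifit2 stood close to the lowest DMSO well. Mean NoStim levels were higher on plate 2 than on plate 1 for every member, for example 553 against 270.3 CPM for Ifit2 and 1393 against 736 CPM for Rsad2.

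The log2 changes were 4.17 ± 0.20 for Rsad2, 3.67 ± 0.22 for Cmpk2, 3.03 ± 0.16 for Ifit1, 2.11 ± 0.22 for Ifit3 and 1.61 ± 0.19 for Ifit2 (± SE, n = 8 wells per group). The largest adjusted p of the 5 was 1.23e-11 (edgeR quasi-likelihood test, Benjamini-Hochberg over all genes). All 5 members were called higher, where 19.5% of all tested genes were. Whether 2 members changed by different amounts was tested with their log2 ratio within each well, which does not change with library scaling. Wells were permuted within plates (exact, 4900 arrangements, two-sided) and p-values were adjusted over 110 tests, from 10 pairs of members in 11 comparisons. All 10 pairs differed after LPS. The Ifit2 to Rsad2 ratio fell by 2.48 ± 0.18 on the log2 scale (exact permutation adjusted p = 0.00173), and the Rsad2 to Cmpk2 ratio rose by 0.53 ± 0.19 (exact permutation adjusted p = 0.0251). The smallest unadjusted p that these permutations can give is 0.000408.

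**Figure D1:**
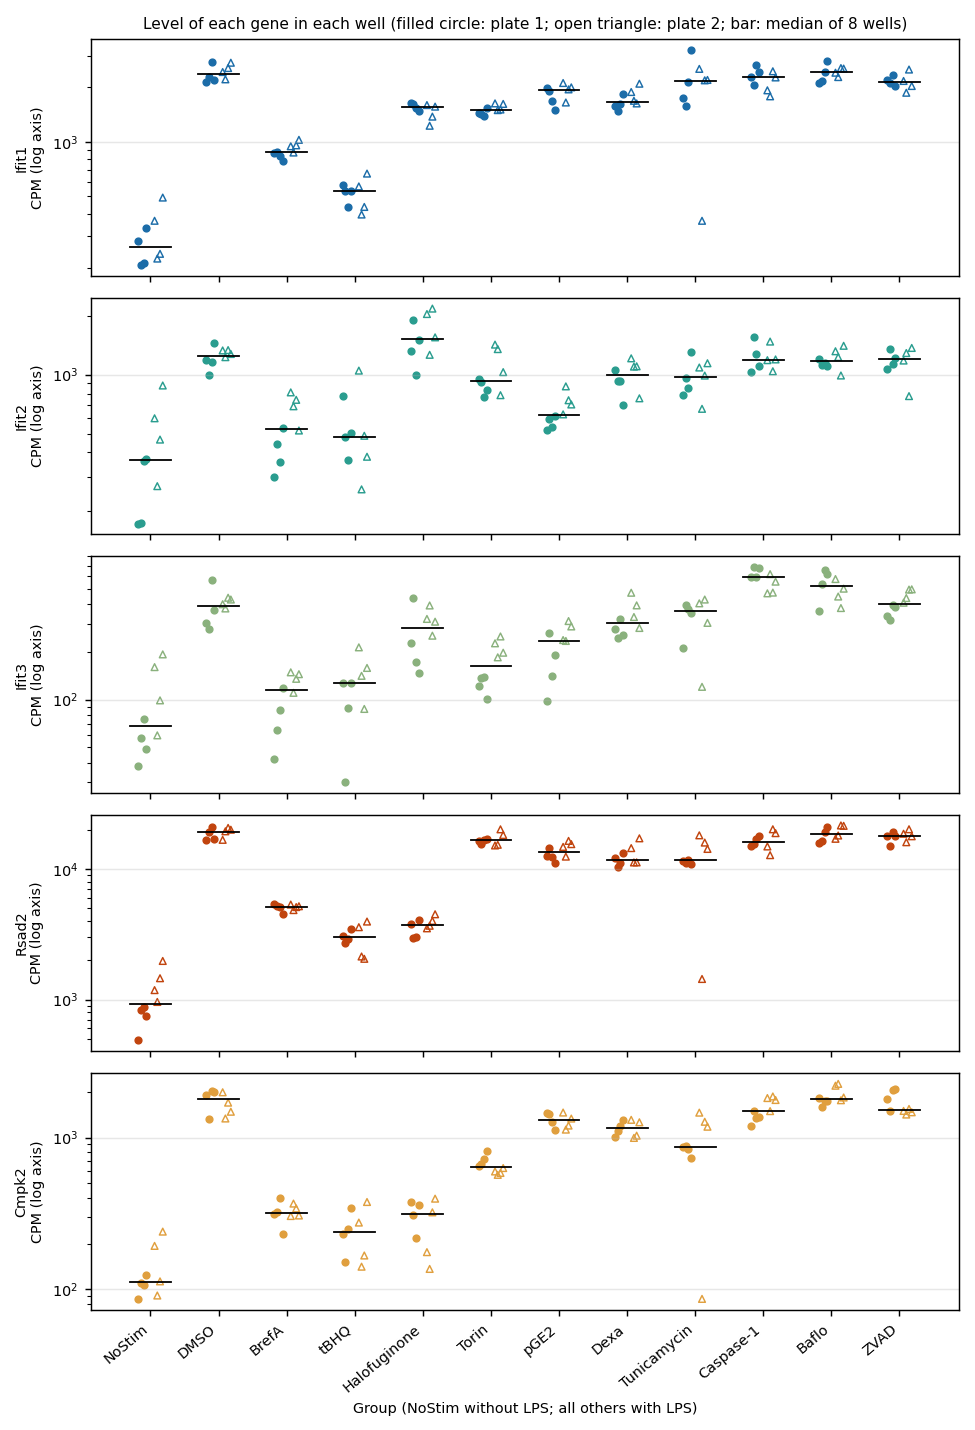
Level of each member in CPM (log axis) in every well of the 12 groups, with plate 1 as filled circles, plate 2 as open triangles and a bar at the median of 8 wells. DMSO wells lie above NoStim wells for all 5 genes, BrefA wells lie below DMSO wells for all 5, and 1 Tunicamycin well on plate 2 lies far below its group for Ifit1, Rsad2 and Cmpk2.

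The order of the groups differed between members. Rsad2 was highest in DMSO (18879 ± 1798 CPM, mean ± SD, n = 8), Baflo (18857 ± 2313), ZVAD (17868 ± 1649.6), Torin (16833 ± 1691) and Caspase-1 (16544 ± 2441) wells. It was intermediate in pGE2 (13745 ± 1857), Dexa (12618 ± 2285) and Tunicamycin (11918 ± 4965) wells. BrefA (5095 ± 293), Halofuginone (3702 ± 523) and tBHQ (2987 ± 679) came next, and NoStim was lowest (1065 ± 468). Of these, 5 of 11 gaps between neighbours in this order exceeded the larger of the 2 SDs. Cmpk2 was highest in Baflo (1868 ± 232), DMSO (1719 ± 305), ZVAD (1668 ± 271) and Caspase-1 (1542 ± 248) wells. It then fell through pGE2 (1299 ± 142), Dexa (1149 ± 132), Tunicamycin (913 ± 417) and Torin (655 ± 81.3). The lowest Cmpk2 levels were in BrefA (324 ± 50.3), Halofuginone (286 ± 97.1), tBHQ (242 ± 87.5) and NoStim (133 ± 54.4) wells. For Cmpk2, 3 of 11 neighbour gaps exceeded the larger SD, and BrefA, Halofuginone and tBHQ did not differ beyond their spread.

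Ifit1 was highest in Baflo (2417 ± 227), DMSO (2416 ± 245), Caspase-1 (2235 ± 291), ZVAD (2159.6 ± 198) and Tunicamycin (1997 ± 826) wells. It was lower in pGE2 (1850.2 ± 213), Dexa (1725 ± 199), Torin (1506 ± 89.2) and Halofuginone (1506 ± 141) wells. BrefA (896 ± 75.6), tBHQ (518 ± 89.9) and NoStim (294 ± 98.1) were lowest, and 4 of 11 neighbour gaps exceeded the larger SD. Ifit2 was highest in Halofuginone (1589.8 ± 409), DMSO (1243 ± 137), Caspase-1 (1232 ± 194), Baflo (1189 ± 128) and ZVAD (1171 ± 189) wells. It stood at 1006 ± 250.2 in Torin, 975 ± 205 in Tunicamycin and 972 ± 178 in Dexa wells. After 1 gap beyond the SD, pGE2 (651 ± 115), BrefA (549 ± 184), tBHQ (537 ± 255) and NoStim (412 ± 237) followed. Ifit3 was highest in Caspase-1 (581 ± 81.2), Baflo (508 ± 108), ZVAD (408 ± 65.6) and DMSO (395 ± 90.2) wells. Tunicamycin (323 ± 107), Dexa (323 ± 76.6), Halofuginone (282 ± 102) and pGE2 (221 ± 73.1) came next, then Torin (169 ± 53.2), tBHQ (121 ± 54.5), BrefA (106 ± 38.8) and NoStim (91.4 ± 56.2). No neighbouring Ifit3 levels differed by more than the larger SD, and counts behind the lowest wells were as few as 6.

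With BrefA, all 5 members fell from the DMSO level, Cmpk2 5.32-fold, Ifit3 3.71-fold, Rsad2 3.70-fold, Ifit1 2.70-fold and Ifit2 2.30-fold. Rsad2 ran from 4493 to 5389 CPM (median 5169), and Cmpk2 from 231 to 402 CPM (median 319). Ifit1 ran from 785 to 1025 CPM (median 876). The 3 ranges lay wholly below DMSO, and those of Rsad2 and Ifit1 lay wholly above NoStim, where 6.51% of all tested genes did. Ifit2 ran from 299.9 to 811 CPM (median 524), and Ifit3 from 42.2 to 148 CPM (median 114). Both also lay wholly below DMSO, and both overlapped NoStim. The range of each of the 5 members was below DMSO, against 4.01% of tested genes. On the log2 scale the changes were -2.41 ± 0.20 for Cmpk2, -1.89 ± 0.22 for Ifit3, -1.89 ± 0.18 for Rsad2, -1.43 ± 0.15 for Ifit1 and -1.20 ± 0.19 for Ifit2. Every compound was compared with the same 8 DMSO wells, so these comparisons share their reference. All 5 were called lower with BrefA, where 9.25% of tested genes were (edgeR quasi-likelihood test, largest adjusted p of the 5 = 2.31e-07).

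Against NoStim, 3 of the 5 members remained higher with BrefA, where 19.8% of all tested genes were called higher. Rsad2 was 4.85-fold higher (log2 2.28 ± 0.19), Ifit1 3.02-fold (1.60 ± 0.16) and Cmpk2 2.39-fold (1.26 ± 0.22), with a largest edgeR adjusted p of 1.71e-06. Ifit2 (log2 0.41 ± 0.19, edgeR adjusted p = 0.0832) and Ifit3 (0.22 ± 0.25, edgeR adjusted p = 0.529) were not distinguished from NoStim. Their 95% intervals ran from 0.04 to 0.79 and from -0.27 to 0.70. On plate 1 alone the Ifit2 difference was 0.55 (edgeR adjusted p = 0.0310), and on plate 2 alone 0.31 (edgeR adjusted p = 0.528). Cmpk2 was 1.53 higher on plate 1 alone (edgeR adjusted p = 1.82e-10) and 1.02 on plate 2 alone, no longer past the threshold (edgeR adjusted p = 0.0642). The differences between members were tested in this contrast too, a choice made after the values were seen, and 9 of 10 pairs differed. The Ifit2 to Rsad2 ratio was 1.83 ± 0.24 lower in BrefA than in NoStim wells on the log2 scale, a difference of -1.83 (exact permutation p = 0.000408, adjusted over 10 pairs 0.00136). The ratio of Ifit1 to Ifit3 was 1.33 ± 0.30 higher (exact permutation adjusted p = 0.00163). Ifit2 and Ifit3 were the pair not distinguished from each other, with a ratio difference of 0.22 ± 0.17 (exact permutation p = 0.234).

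The share of the LPS rise left was computed as the difference in CPM from NoStim over that of DMSO wells. The NoStim and DMSO means were held fixed, so each SD of a share holds only the spread of the compound wells. With BrefA it was 28.4% ± 3.6 for Ifit1 (SD, n = 8), 22.6% ± 1.6 for Rsad2, 16.5% ± 22.1 for Ifit2, 12.0% ± 3.2 for Cmpk2 and 4.9% ± 12.8 for Ifit3. The SDs of Ifit2 and Ifit3 were larger than the values themselves. Against DMSO, 7 of 10 pairs of members differed with BrefA. The ratio of Ifit1 to Cmpk2 rose by 0.97 ± 0.13 on the log2 scale (exact permutation adjusted p = 0.00173), and that of Rsad2 to its neighbour Cmpk2 by 0.50 ± 0.14 (exact permutation adjusted p = 0.0143). Each BrefA well had an Ifit1 to Rsad2 log2 ratio between -2.63 and -2.34, and each DMSO well one between -3.13 and -2.78. Those ranges did not overlap. Ifit1 and Ifit2 fell by amounts not distinguished from each other, with a ratio difference of -0.19 ± 0.18 (exact permutation adjusted p = 0.399).

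**Figure D2:**
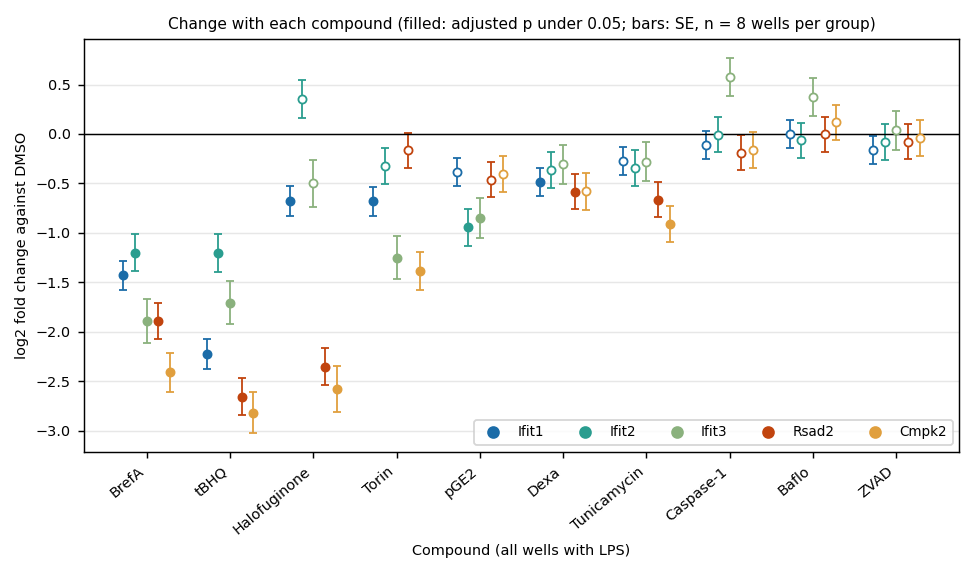
Log2 fold change of each member against DMSO for the 10 compounds, with SE bars (n = 8 wells per group) and filled symbols where the adjusted p was under 0.05. All 5 symbols are filled and below 0 for BrefA and tBHQ, the members spread from 0.35 to -2.58 with Halofuginone, and no symbol is filled for Caspase-1, Baflo and ZVAD.

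Ifnb1 mRNA, which encodes the secreted signal, was below the filter, with 145 counts in 96 libraries. It had 2 counts in the 8 NoStim wells, 14 in the DMSO wells, 32 in the BrefA wells and 40 in the Halofuginone wells. In the other groups it had 4 to 13 counts. Its mean level was 6.45 ± 4.82 CPM in DMSO and 0.698 ± 1.97 CPM in NoStim wells (SD, n = 8; exact permutation p = 0.00612, adjusted over 11 comparisons 0.0337). With BrefA it was 14.5 ± 13.1 CPM, which was not distinguished from DMSO (exact permutation p = 0.0424, adjusted 0.0778). With Halofuginone it was 74.0 ± 42.8 CPM, above DMSO (exact permutation p = 0.000408, adjusted 0.00449), in the libraries with the high Rn45s share, whose part in this was not tested. With pGE2 it was 1.44 ± 2.12 CPM, below DMSO (exact permutation p = 0.0102, adjusted 0.0374). These tests were chosen after the values were seen.

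Of 42 other interferon-stimulated antiviral genes, 41 rose with LPS and Sp100 did not pass (list median log2 change 1.68, against -0.04 over all tested genes). With BrefA, 34 fell from DMSO and 0 rose (median -1.38, against 0.01 over all genes). Examples were Iigp1, an immunity-related GTPase (-4.04 ± 0.25), Mx1, an antiviral dynamin-like GTPase (-2.50 ± 0.20), and Isg20, an exonuclease (-1.43 ± 0.31). Isg15, a ubiquitin-like modifier, was 0.03 ± 0.16 and did not pass the test. Against NoStim, 12 of the 42 remained higher with BrefA and 1, Ifitm3, was lower by 0.58 ± 0.13, a difference of -0.58 (median of the list 0.22). Of 17 LPS-induced genes outside the interferon loop, 16 remained higher than NoStim with BrefA (median 3.23), among them Tnf (3.71 ± 0.15), which encodes an inflammatory cytokine. Against DMSO, 4 of the 17 rose and 5 fell with BrefA (median -0.09). Of 6 tested genes listed here as IRF3 targets, 5 remained higher than NoStim (median 3.19), and Irf7 did not (-0.40 ± 0.22). The chemokine gene Ccl5 (4.96 ± 0.22) and Cxcl10 (1.28 ± 0.21) were among the 5. Whether IRF3 or ISGF3 switched on each listed gene, Irf7 included, was not tested. Against DMSO, 2 of the 6 fell and 0 rose with BrefA (median -0.09). Mean Cxcl10 was 2488 CPM in BrefA and 8063 CPM in DMSO wells. The lists overlap: the IRF3 targets share Isg15 and Oasl1 with the antiviral genes, Isg15 is also among the feedback inhibitors, and Socs3 is both a feedback inhibitor and among the 17 genes. Stat2, which encodes a subunit of ISGF3, fell from DMSO with BrefA by 1.53 ± 0.18 on the log2 scale. Of 5 feedback inhibitors, 4 fell, including Socs1 (-4.07 ± 0.30), a suppressor of JAK signalling, and Usp18 (-1.60 ± 0.21), which acts at the interferon receptor.

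tBHQ, taken as tert-butylhydroquinone, an activator of the NRF2 stress response, lowered all 5 members as well, Cmpk2 7.06-fold, Rsad2 6.31-fold, Ifit1 4.67-fold, Ifit3 3.27-fold and Ifit2 2.30-fold. Rsad2 ran from 2052 to 3962 CPM (median 2991), Cmpk2 from 141 to 376 CPM (median 240.2) and Ifit1 from 396 to 667 CPM (median 532). Ifit3 ran from 30.2 to 213 CPM (median 127). These 4 lay wholly below DMSO, where 8.26% of tested genes did. Ifit2 ran from 259 to 1047 CPM (median 482), and 1 well reached into the DMSO range. All 5 were called lower, where 19.1% of tested genes were (edgeR quasi-likelihood test, largest adjusted p = 1.03e-07). Against NoStim, Rsad2 (1.51 ± 0.19), Cmpk2 (0.85 ± 0.22) and Ifit1 (0.80 ± 0.16) remained higher, and 4.76% of tested genes did. Only the Rsad2 range lay wholly above NoStim, where 1.27% of tested genes did. For Ifit1, 5 wells lay above the highest NoStim well, and for Cmpk2 4 wells did. Ifit2 (0.41 ± 0.19) and Ifit3 (0.40 ± 0.24) were not distinguished from NoStim (edgeR adjusted p = 0.213 and 0.382), and on plate 2 alone none of the 5 were. The share of the LPS rise left was 6.8% ± 5.5 for Cmpk2, 9.9% ± 18.0 for Ifit3, 10.5% ± 4.2 for Ifit1, 10.8% ± 3.8 for Rsad2 and 15.1% ± 30.7 for Ifit2. Of 10 pairs, 7 differed, the most for Ifit2 to Cmpk2 (1.55 ± 0.26, exact permutation adjusted p = 0.00173). Other antiviral genes fell in 37 of 42 cases and none rose (median -1.42). LPS-induced genes outside the interferon loop fell in 16 of 17 (median -2.33).

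**Figure D3:**
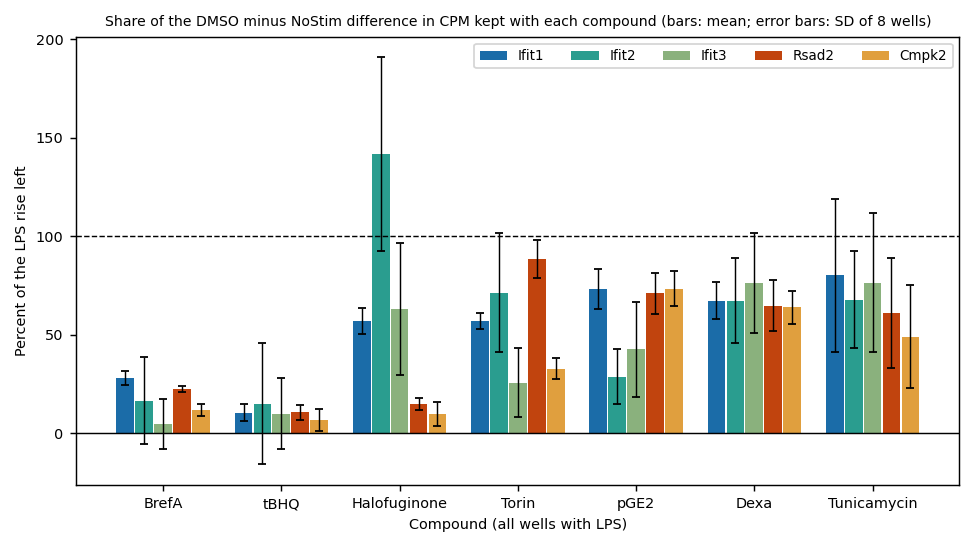
Share of the LPS rise left, as the percent of the DMSO minus NoStim difference in CPM, for each member with 7 compounds (bars are means, error bars SD of the 8 compound wells only, the dashed line marks the DMSO level). With BrefA no member stands above 28.4%, with Halofuginone they run from 9.6% for Cmpk2 to 142% for Ifit2, and with Torin Rsad2 stands at 88.5% and Cmpk2 at 32.9%.

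Halofuginone, an inhibitor of prolyl-tRNA synthetase, split the members. Rsad2 was 5.11-fold lower than in DMSO wells and Cmpk2 5.97-fold lower, while Ifit1 was 1.60-fold lower and neither Ifit2 nor Ifit3 passed the test. Rsad2 ran from 2971 to 4506 CPM (median 3735), Cmpk2 from 136 to 396 CPM (median 314) and Ifit1 from 1227 to 1642 CPM (median 1555). These 3 lay wholly below DMSO, where 7.72% of tested genes did. Ifit2 ran from 998 to 2170.4 CPM (median 1520.2) and Ifit3 from 147 to 435 CPM (median 281), both across the DMSO range. The log2 changes were -2.35 ± 0.19 for Rsad2, -2.58 ± 0.23 for Cmpk2 and -0.68 ± 0.15 for Ifit1 (edgeR quasi-likelihood test, largest adjusted p = 0.000142). They were 0.35 ± 0.19 for Ifit2 (edgeR adjusted p = 0.127) and -0.50 ± 0.24 for Ifit3 (edgeR adjusted p = 0.0861). So 3 of 5 were called lower, where 25% of tested genes were. Fitted with the compared groups only, Ifit2 was 0.52 ± 0.12 higher than DMSO (edgeR adjusted p = 0.000362). Ifit3 passed as lower with no filter on low counts (-0.82, edgeR adjusted p = 0.00933), with a filter at 20 mean CPM (-0.56, edgeR adjusted p = 0.0493), with same-named wells summed (-0.49, edgeR adjusted p = 0.0425) and without wells F (-0.83, edgeR adjusted p = 0.0111). Against NoStim, all 5 members were higher, where 24.1% of tested genes were, by 1.09 ± 0.27 for Cmpk2 to 2.35 ± 0.16 for Ifit1, with 1.97 ± 0.20 for Ifit2. The ranges of Ifit1, Ifit2 and Rsad2 lay wholly above NoStim, where 5.30% of tested genes did. Those of Ifit3 and Cmpk2 overlapped it.

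These libraries had fewer counts, 8 to 28 for Cmpk2 per well, and more Rn45s, and the part of depth in the levels was not tested. The share of the LPS rise left depended on scaling. It was 142% ± 49.2 for Ifit2, 62.9% ± 33.5 for Ifit3, 57.1% ± 6.6 for Ifit1, 14.8% ± 2.9 for Rsad2 and 9.6% ± 6.1 for Cmpk2 in scaled CPM. In CPM without composition scaling it was 83.8%, 32.6%, 34.6%, 7.62% and 2.76% in the same order, so that Ifit2 stood above DMSO in the first and below it in the second. In CPM of the counts left without Rn45s and Lars2, also without composition scaling, it was 172%, 73.7%, 64.4%, 16.3% and 10.2%. The ratios within wells carry no such dependence, and 8 of 10 pairs differed. The Ifit2 to Rsad2 log2 ratio ran from -1.59 to -0.65 with Halofuginone and from -4.27 to -3.55 in DMSO wells, without overlap, a difference of 2.68 ± 0.17 (exact permutation adjusted p = 0.00173). The Ifit2 to Cmpk2 ratio rose by 2.90 ± 0.22 and the Ifit1 to Rsad2 ratio by 1.68 ± 0.10 (exact permutation adjusted p = 0.00173 for each). Rsad2 and Cmpk2, neighbours on chromosome 12, were not distinguished from each other (0.22 ± 0.21, exact permutation adjusted p = 0.376). Of the other 42 antiviral genes, 26 fell and 3 rose (median -0.94, against -0.20 over all genes). The 3 that rose, named here after their values were seen, were the RNA sensor genes Ifih1 (0.58 ± 0.16) and Ddx58 (0.96 ± 0.24) and the ubiquitin ligase gene Trim25 (0.49 ± 0.20).

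**Figure D4:**
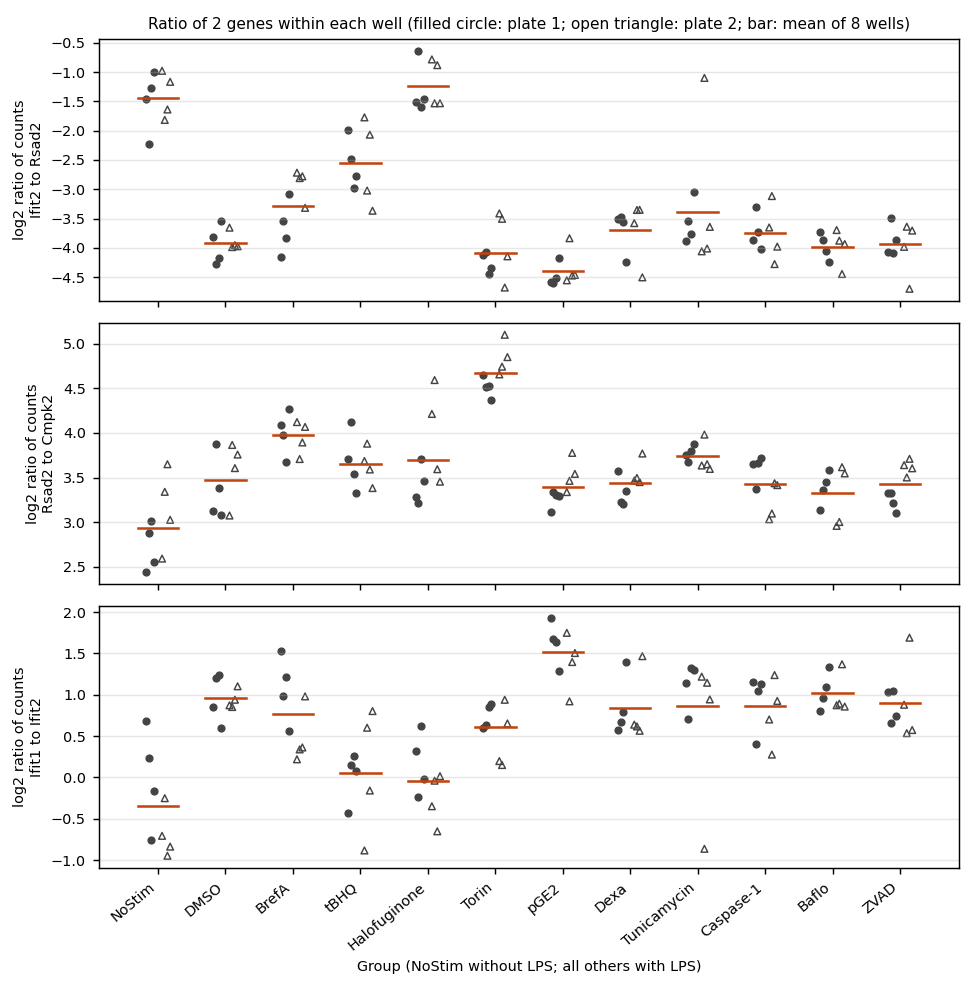
Log2 ratio of counts within each well for Ifit2 to Rsad2, Rsad2 to Cmpk2 and Ifit1 to Ifit2 in the 12 groups (plate 1 as filled circles, plate 2 as open triangles, bar at the mean of 8 wells). The Ifit2 to Rsad2 ratio lies between -1.59 and -0.65 in Halofuginone wells and between -2.23 and -0.98 in NoStim wells, and Torin wells have the highest Rsad2 to Cmpk2 ratio, between 4.37 and 5.10.

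Torin, taken as an inhibitor of the growth kinase mTOR, separated the 2 genes of the chromosome 12 pair. Rsad2 ran from 15188 to 20193 CPM (median 16617), across the DMSO range, and Cmpk2 from 567.6 to 812 CPM (median 642), wholly below it. Ifit1 (1387 to 1631 CPM, median 1503) and Ifit3 (101 to 249.8 CPM, median 162) also lay wholly below DMSO, where 1.39% of tested genes did. Ifit2 ran from 766 to 1421 CPM (median 931) and overlapped DMSO. In log2 units the changes were -1.38 ± 0.19 for Cmpk2, -1.25 ± 0.22 for Ifit3 and -0.68 ± 0.14 for Ifit1 (edgeR quasi-likelihood test, largest adjusted p = 0.000163), so 3 of 5 were called lower against 7.11% of tested genes. They were -0.32 ± 0.18 for Ifit2 (edgeR adjusted p = 0.243) and -0.17 ± 0.18 for Rsad2 (edgeR adjusted p = 0.586). On plate 2 alone Ifit1 did not pass (-0.67, edgeR adjusted p = 0.139), and fitted with the compared groups only Ifit2 did (-0.33, edgeR adjusted p = 0.0112). All 5 were higher than NoStim, where 21.3% of tested genes were. The ranges of Ifit2 and Ifit3 overlapped NoStim.

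The Rsad2 to Cmpk2 log2 ratio ran from 4.37 to 5.10 in Torin wells and from 3.07 to 3.87 in DMSO wells, without overlap. The difference was 1.21 ± 0.15 (exact permutation adjusted p = 0.00173). Ifit3 fell relative to Rsad2 by 1.06 ± 0.18 (exact permutation adjusted p = 0.00173) and relative to Ifit1, whose ratio to Ifit3 rose by 0.55 ± 0.17 (exact permutation adjusted p = 0.00396). In all, 7 of 10 pairs differed. The share of the LPS rise left was 88.5% ± 9.5 for Rsad2, 71.4% ± 30.1 for Ifit2, 57.1% ± 4.2 for Ifit1, 32.9% ± 5.1 for Cmpk2 and 25.7% ± 17.5 for Ifit3. Other antiviral genes fell in 14 of 42 cases and rose in 1, Trim25 (median -0.41). Ifit3b, which shares sequence with Ifit3, was at -1.25 ± 0.25 and passed the test under its symbol I830012O16Rik.

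pGE2, taken as prostaglandin E2, a lipid that raises cyclic AMP, lowered Ifit2 1.92-fold and Ifit3 1.81-fold. Ifit2 ran from 522 to 869.9 CPM (median 619.5), wholly below DMSO, and Ifit3 from 97.9 to 312 CPM (median 236), with an overlap. Ifit1 (1497 to 2115 CPM, median 1928) and Rsad2 (11089.9 to 16462 CPM, median 13594) also lay wholly below DMSO, where 2.22% of tested genes did, and Cmpk2 (1126 to 1461 CPM, median 1295) overlapped it. The log2 changes were -0.94 ± 0.19 for Ifit2 and -0.85 ± 0.20 for Ifit3 (edgeR quasi-likelihood adjusted p = 5.74e-05 and 0.00117). Those of Ifit1 (-0.39 ± 0.14), Cmpk2 (-0.41 ± 0.18) and Rsad2 (-0.46 ± 0.18) did not pass (edgeR adjusted p = 0.0638, 0.156 and 0.0773). So 2 of 5 were called lower, against 5.98% of tested genes in the main fit. All 5 were called lower when Tunicamycin plate 2 F was left out of the joint fit, whose share of all genes is not given here. On plate 2 alone none were. Of 10 pairs, 6 differed. Ifit2 fell relative to Cmpk2 by 0.55 ± 0.15 and relative to Rsad2 by 0.48 ± 0.13 (exact permutation adjusted p = 0.00499 and 0.0128), and the Ifit1 to Ifit2 ratio rose by 0.55 ± 0.13 (exact permutation adjusted p = 0.00607). The share of the LPS rise left was 28.8% ± 13.9 for Ifit2 and 42.7% ± 24.1 for Ifit3, beside 73.5% ± 9.0 for Cmpk2, 73.3% ± 10.05 for Ifit1 and 71.2% ± 10.4 for Rsad2. Other antiviral genes fell in 6 of 42 cases and rose in 1, also Trim25 (median -0.33).

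Dexa, taken as the glucocorticoid dexamethasone, lowered Rsad2 and Ifit1 to a small extent. Rsad2 ran from 10352 to 17226 CPM (median 11683), with 1 well reaching into the DMSO range. Ifit1 (1486 to 2096 CPM, median 1658) and Cmpk2 (994 to 1308 CPM, median 1148) lay wholly below DMSO, where 0.604% of tested genes did. Their log2 changes were -0.59 ± 0.18 for Rsad2 and -0.49 ± 0.14 for Ifit1 (edgeR quasi-likelihood adjusted p = 0.0413 and 0.0314), so 2 of 5 were called lower against 1.61% of tested genes. Cmpk2 was at -0.58 ± 0.18 (edgeR adjusted p = 0.0568), Ifit2 at -0.36 ± 0.18 and Ifit3 at -0.30 ± 0.20. Without Tunicamycin plate 2 F in the joint fit, Cmpk2 passed (-0.59, edgeR adjusted p = 0.000750). These calls lay near the threshold: leaving out 1 well letter gave 0 to 3, and plate 2 alone gave 0. The shares of the rise left ran from 64.1% ± 8.3 for Cmpk2 to 76.3% ± 25.3 for Ifit3. None of the 10 pairs differed by the exact permutation test at an adjusted p under 0.05, so unequal changes were not detected.

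Tunicamycin, an inhibitor of N-glycosylation, gave a wide spread, with 1 well far below the other 7. Rsad2 ran from 1437 to 18158 CPM (median 11682) and Cmpk2 from 86.5 to 1458 CPM (median 868), with the lowest value of each in plate 2 F. The same well had the lowest Ifit1 (365 CPM, where the group's median was 2170.4), Ifit2 (668 CPM, median 976) and Ifit3 (120.2 CPM, median 362). The log2 changes were -0.91 ± 0.18 for Cmpk2 and -0.67 ± 0.18 for Rsad2 (edgeR quasi-likelihood adjusted p = 0.000632 and 0.0152), and 2 of 5 were called lower against 1.57% of tested genes. Without plate 2 F they were -0.73 ± 0.14 and -0.49 ± 0.12 (edgeR adjusted p = 9.22e-05 and 0.00488). With the compared groups only, neither passed (edgeR adjusted p = 0.140 for Cmpk2 and 0.245 for Rsad2). Ifit1 (-0.27 ± 0.14), Ifit2 (-0.35 ± 0.18) and Ifit3 (-0.28 ± 0.20) did not pass, with or without plate 2 F. All 5 were higher than NoStim, where 20.1% of tested genes were. Their ranges all overlapped NoStim. For Ifit1, Ifit3, Rsad2 and Cmpk2, 7 wells lay above the highest NoStim well, and for Ifit2 5 wells did. The share of the rise left was 49.2% for Cmpk2 and 60.9% for Rsad2, or 56.6% and 69.3% without plate 2 F, and 4 pairs differed either way. The Ifit1 to Cmpk2 ratio rose by 0.72 ± 0.22 (exact permutation adjusted p = 0.00709), or by 0.61 ± 0.21 without plate 2 F (exact permutation adjusted p = 0.0112). Mean levels without that well were 13415 ± 2799 CPM for Rsad2, 1031 ± 270.1 for Cmpk2, 2229.8 ± 537 for Ifit1, 1019 ± 176 for Ifit2 and 352 ± 74.3 for Ifit3 (SD, n = 7).

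Caspase-1, Baflo and ZVAD, of which the first and last were taken as caspase inhibitors and Baflo as bafilomycin, left all 5 members in ranges that overlapped DMSO. With Caspase-1, 0 members were called lower or higher, and 1.51% of tested genes were called lower (edgeR quasi-likelihood test). Among 4963 tested genes, 144 were called in either direction, 939 passed an unadjusted p under 0.05 and DESeq2 called 243. Of the members, 1 passed an unadjusted p under 0.05 and DESeq2 called 1, in both cases Ifit3. It ran from 467 to 685 CPM (median 592) against 278 to 570.1 CPM in DMSO wells, a log2 change of 0.58 ± 0.19 (edgeR adjusted p = 0.0708, DESeq2 adjusted p = 0.0351). Without Tunicamycin plate 2 F in the joint fit it passed (0.59, edgeR adjusted p = 0.0454). Ifit3 rose relative to each of the other 4 members, by 0.77 ± 0.15 relative to Rsad2 (exact permutation adjusted p = 0.00299) and by 0.72 ± 0.18 relative to Cmpk2 (exact permutation adjusted p = 0.0136). The Ifit1 to Ifit3 ratio fell by 0.69 ± 0.13 and the Ifit2 to Ifit3 ratio fell by 0.59 ± 0.13 (exact permutation adjusted p = 0.00173 and 0.00396). With Baflo, 0% of tested genes were called lower and 0 members passed. Among all genes 373 passed an unadjusted p under 0.05, none of them a member, and DESeq2 called 2 genes and 0 members. Ifit3 was at 0.38 ± 0.19 (95% interval 0.00 to 0.76), the Ifit1 to Ifit3 ratio fell by 0.36 ± 0.13 and the Ifit2 to Ifit3 ratio fell by 0.43 ± 0.16 (exact permutation adjusted p = 0.0354 and 0.0441). With ZVAD, 0% of tested genes were called lower by edgeR, 176 passed an unadjusted p under 0.05 with 0 members among them, and DESeq2 called 0. The ZVAD changes ran from -0.16 ± 0.14 for Ifit1 to 0.04 ± 0.19 for Ifit3, and no pair differed by the exact permutation test. For Rsad2 the 95% intervals were -0.35 to 0.34 with Baflo and -0.42 to 0.27 with ZVAD.

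Profiles over the 12 group means (log2 of CPM plus 1) were compared with those of 3832 genes of 30 or more mean CPM, as a description over groups that share plates. Ifit1 was most like Pydc4 (Pearson r = 0.983), Parp14 (0.971) and Gbp4 (0.968). Ifit2 was most like Setdb2 (0.956), Rnd3 (0.951) and Samd9l (0.946). Ifit3 was most like Igtp (0.973), Cxcl10 (0.964) and Lipg (0.960), Rsad2 most like Ifi203 (0.985), Gbp7 (0.972) and Gbp6 (0.971), and Cmpk2 most like Stat2 (0.971), March5 (0.964) and Trex1 (0.962). Among the members, Rsad2 and Cmpk2 were the most alike (0.950) and Ifit2 and Cmpk2 the least (0.651). The 3 Ifit genes had r of 0.861 to 0.888 with each other.

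Genes beside the members did not all move with them. Of the Ifit relatives between Ifit3 and Ifit1, Ifit3b (listed as I830012O16Rik) rose by 1.56 ± 0.24 with LPS and fell by 0.88 ± 0.23 with BrefA. Ifit1bl1 (listed as Gm14446) rose by 2.54 ± 0.39 with LPS and was at -2.96 ± 0.43 with BrefA, passing the test. Ifit3b remained 0.68 ± 0.26 above NoStim with BrefA, past the threshold, and Ifit1bl1 did not differ detectably from NoStim (-0.42 ± 0.58). Ifit1bl2 had 76 counts in all and was not tested. Outside the Ifit cluster on chromosome 19, Ch25h, which encodes a cholesterol hydroxylase, rose by 3.30 with LPS and was at -0.11 with BrefA (edgeR adjusted p = 0.818). Lipa, a lysosomal lipase gene, was at -0.34 with LPS and -0.36 with BrefA (edgeR adjusted p = 0.00776 and 0.0112). Of 3 tested nucleotide synthesis relatives of Cmpk2, 1 was called, Samhd1, which encodes a nucleotide-degrading enzyme and is also among the other antiviral genes counted above. It rose by 0.94 ± 0.13 with LPS and fell by 1.04 ± 0.13 with BrefA. Cmpk1, a cytosolic kinase of the same kind, was at 0.27 ± 0.22 with LPS and -0.50 ± 0.23 with BrefA, and passed neither test.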

How the data were processed

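The data are 96 libraries from mouse macrophages, 8 in each of 12 groups. The deposited table holds whole-number counts per gene symbol, made by the authors from 3′-end reads (modified SCRB-Seq, per the labels' protocols) aligned with BWA to mm10, per the submitters' processing notes. Whether PCR copies were collapsed is not given in the sources used here, nor are the annotation and the version of BWA. Groups came from the labels. No other per-sample columns were found (0).

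Counts were fitted with edgeR 4.0.16 in R 4.3.3 (TMM scaling, filterByExpr, all libraries with group and plate, robust quasi-likelihood tests, two-sided, Benjamini-Hochberg over 4963 genes, threshold 0.05). Fold changes are log2 ± SE. On simulated counts of BrefA against DMSO (3661 genes), 62 of 100 genes changed by 1 on the log2 scale and 93 of 100 changed by 2 were recovered, with 4 false calls. Ratios between members used a pseudocount of 1 count and exact permutation within plates. Intervals of fold changes are 95% (1.96 SE). DESeq2 1.42.0 was an alternative. Python 3.11.15 with matplotlib 3.10.9 made the figures.

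The members and lists were chosen with earlier results of these data known. The naming rule took all 5 members, the 3 genes most like each, and of each list the 2 first-listed tested genes and the 2 largest changes past the threshold; the text names some of these, and others where it says so or where a role in the pathway called for it, after their values were seen. Tests of Ifnb1 and of pairs in BrefA against NoStim, unscaled CPM, and pairs and shares without Tunicamycin plate 2 F were added after the data were seen. Same-named wells deviated together across plates (mean r 0.0581 to 0.260 over 2683 genes), so wells summed to 4 per group were an alternative. NoStim wells held letters A to D and all LPS wells letters E to H, so LPS and letter cannot be told apart. Compound wells and DMSO wells of the same plate and letter had a mean r of 0.0158 to 0.103. The lowest r was negative for every compound, and letters were not used to pair wells in the main fit. The list of interferon receptor and ISGF3 genes is not reported here as a list.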

Additional observations from a re-analysis of the deposited data

Results flagged for a closer look

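Rsad2 in Tunicamycin plate 2 F was 1437 CPM, and the next lowest of the 8 Tunicamycin wells was 10879 CPM. The gap took up a share of 0.565 of the group's range, above the limit of 0.526 for 8 values (Dixon's test). It was 1 of 60 groups of wells checked, and chance alone gives about 1 in 20. The same well had the lowest level of all 5 members in its group. Tunicamycin values without this well, and the calls that change without it, are given in the results.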

How the results depend on the processing

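Counts of members called lower with BrefA, tBHQ, Halofuginone and Torin stayed within 1.5 times their values under every alternative run, and no member's called change reversed. For Dexa (2 members), the count was 1 with no plate term, with no filter on low counts and with same-named wells summed, 0 on plate 2 alone and 4 with only the compared groups. Leaving out a well letter gave 0 to 3. For pGE2 (2 members), it was 4 on plate 1 alone, 0 on plate 2 alone, 5 with only the compared groups and 5 without Tunicamycin plate 2 F. Leaving out a letter gave 1 to 5. With the well letter as a replicate block it was 4. For Tunicamycin (2 members), it was 0 on plate 2 alone and 0 with only the compared groups, and 1 to 2 with a letter left out. For tBHQ against NoStim, 3 members higher became 0 on plate 2 alone. A single plate has fewer wells. For the other settings the cause was not tested. The share of all tested genes called under each alternative is not given here. Whether the letters pair the wells is not stated in the labels.

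All 55 pair differences kept their sign under every alternative that could be run. With 1 of the NoStim letters A to D left out, 52 to 55 of them were still called. With 1 of the letters E to H of the LPS groups left out, 44 to 45 were, and with the replicate block 41 of 45 were. With wells summed, or on 1 plate, the smallest exact permutation p is 0.0286, and 0 were called. Few counts in Halofuginone wells limit Ifit3 and Cmpk2 there, and Ifnb1 throughout.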
